A study of Mus musculus with 13 samples.

Results

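Netrins, Slits and semaphorins are secreted or membrane-bound guidance cues, and the 10 genes described here encode cues and receptors of these families: the ligands Ntn1, Ntn4, Slit2 and Slit3, the netrin receptors Unc5b and Unc5c, the Slit receptors Robo1 and Robo2, and the neuropilins Nrp1 and Nrp2. They are 10 of the 35498 genes quantified in these mouse melanoma lines. The set was drawn up as a list of names, with earlier results of these data known. Unc5c and Robo1 were chosen by their measured levels, which differ strongly between the labelled groups in these same libraries, so their values are given below as a description, without a test. Of the 10 genes, 9 passed the filter on low counts and Slit3 did not. The tests below therefore concern 7 genes: Unc5b, Robo2, Slit2, Ntn1, Ntn4, Nrp1 and Nrp2.

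The study sequenced poly(A) RNA of 13 libraries from cultured melanoma cell lines carrying doxycycline-inducible constructs, and its title concerns soluble adenylyl cyclase (sAC, encoded by Adcy10 in the mouse) in defined compartments of the cell. Lines 6, 7 and 16 carry the NLS construct, whose compartment label under doxycycline is nuclear, and each gave 1 library without doxycycline (labelled t0), 1 after 6 h (t6) and 1 after 48 h (t48). Lines 10 and 12 carry LacZ and each gave 1 library labelled t0 and 1 labelled t48. Each of the 2 LacZ groups thus has n = 2, and each of the 3 NLS groups n = 3. Every t0 library has the compartment label none, and the LacZ t48 libraries carry the label nuclear, against their titles, by which they were grouped. Each construct is in its own lines, so a difference between NLS and LacZ libraries and a difference between their cell lines cannot be told apart. The labels do not say that libraries came from separate cultures beyond the line number, so a p-value here reflects only how far these libraries spread, which may be technical.

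Libraries held 18512887 to 22584628 estimated reads. Adcy10 went against the time labels: it stood at 339 to 371 CPM (counts scaled to a common library size) in line 6 and at 181 to 200.3 CPM in line 7 at every label, t0 included, at 0.67 to 1.22 CPM in line 16, and at 0 to 3 reads in the LacZ libraries. Doxycycline times are therefore given as labels throughout. Of 7 pigment cell markers, 1 reached 1 CPM (Mitf, 2.76 to 5.37 CPM), with Tyrp1 at 0 in every library. Of 8 fibroblast markers 6 did, with a summed level of 7126 to 17063 CPM, mostly of the collagens Col1a1, Col1a2 and Col3a1. Of the markers of other cells that could be present, 1 of 7 endothelial (Pecam1, at most 4.20 CPM), 1 of 6 leukocyte (Cd68), 3 of 8 neuron and glia, 1 of 4 keratinocyte and 2 of 5 mural markers reached 1 CPM. In bulk RNA, fewer cells of a type and less RNA per cell cannot be told apart.

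Netrins bind DCC and UNC5 receptors. UNC5 receptors, Unc5b and Unc5c among them, mediate repulsion and carry an intracellular death domain, and have been described as dependence receptors that can trigger cell death when no netrin is bound. Slits bind Robo receptors on the same or neighbouring cells and act mostly as repellents, and neuropilins are co-receptors that pair with plexins to bind class 3 semaphorins and with VEGF receptors to bind VEGF. In melanoma and its parent lineage, the neural crest, these families are best known for their part in cell migration.

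The upstream sequences of 4 receptors are shown because the results turn on them: Unc5b and Unc5c are receptors of the same ligands whose levels differ in pattern, and Robo1 and Robo2 are neighbours with near-silent levels in 1 group. They come from RefSeq (GRCm38.p6), which held windows for 9 of the 10 genes, all but Ntn1. Each is written 5′ to 3′ on the gene's strand, and for Unc5b, Robo1 and Robo2 it spans the 250 bases that end just before an annotated start. The Unc5c window lies inside a longer transcript of the gene, so only 25 bases of it are shown. Capitals mark motif matches: in Unc5b, CCGCCC, the reverse complement of the GC box GGGCGG; in Unc5c, CGTCA, the reverse complement of TGACG, the core of the cAMP response element.
Unc5b, chr10:60831582-60831831, minus strand: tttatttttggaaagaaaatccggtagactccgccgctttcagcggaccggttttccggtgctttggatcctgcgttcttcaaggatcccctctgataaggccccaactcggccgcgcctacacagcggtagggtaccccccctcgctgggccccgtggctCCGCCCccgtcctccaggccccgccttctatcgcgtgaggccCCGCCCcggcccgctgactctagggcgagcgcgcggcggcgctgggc
Unc5c, chr3:141465475-141465499, plus strand: agccgggagaCGTCAgtggctaggc
Robo1, chr16:72662899-72663148, plus strand: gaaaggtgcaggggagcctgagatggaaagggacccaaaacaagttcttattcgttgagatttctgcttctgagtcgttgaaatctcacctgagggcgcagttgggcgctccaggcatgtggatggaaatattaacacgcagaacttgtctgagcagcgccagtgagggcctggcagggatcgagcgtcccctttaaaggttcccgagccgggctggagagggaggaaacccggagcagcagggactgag
Robo2, chr16:74411826-74412075, minus strand: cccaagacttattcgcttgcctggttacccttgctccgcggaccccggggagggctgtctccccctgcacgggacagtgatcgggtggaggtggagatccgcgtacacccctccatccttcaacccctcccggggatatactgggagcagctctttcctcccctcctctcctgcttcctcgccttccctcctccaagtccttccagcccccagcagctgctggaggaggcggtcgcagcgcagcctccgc
Both strands of each window were searched for 6 motifs, where N is any base: TGACGTCA (the full cAMP response element, in 1.55% of 32851 upstream windows of the same length), TGACG (17.8%; it also matches within the full element), TATAAA (12.4%), GGGCGG (32.7%), GGAATG (a TEAD site, 12.6%) and TGANTCA (an AP-1 site, 6.75%). GGGCGG was found in the windows of Unc5b, Slit2, Slit3, Ntn4, Nrp1 and Nrp2. TGACG was found only in the Unc5c window among the 9 genes, 79 bases before the start, and TATAAA only in that of Slit2. None of the 6 was in the printed Robo1 and Robo2 windows, nor in 2 further windows that RefSeq gives for other Robo2 starts.

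Per transcript length, Ntn1 and Nrp2 were the most abundant of the 10 genes, with means over the 13 libraries of 95.3 and 71.8 TPM (Salmon's unit scaled by transcript length, used here to compare genes). Unc5b followed at 25, Nrp1 at 23.4 and Ntn4 at 20.3 TPM, and the ranges of these 3 over libraries overlapped. Robo2 (10.9 TPM), Robo1 (4.79 TPM), Slit2 (3.58 TPM) and Unc5c (2.03 TPM) had lower means, also with overlapping ranges, and Slit3 was at 0 TPM in 12 of the libraries. The order differed between constructs: at LacZ t0, Slit2 (3.59 to 3.72 TPM) lay above Robo1 (0.377 to 0.499 TPM), whereas at NLS t6 Robo1 (7.93 to 8.91 TPM) lay above Slit2 (3.54 to 4.38 TPM).

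**Figure D1:**
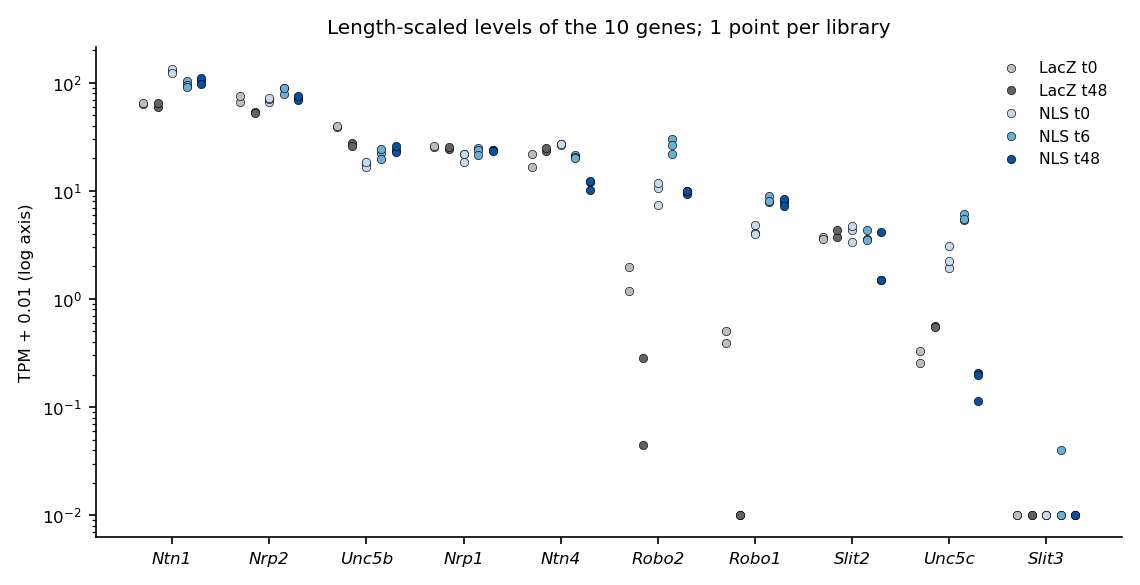
Length-scaled levels of the 10 genes, with 1 point per library. The vertical axis is TPM + 0.01 on a log scale, shades mark the 5 labelled groups, and genes are ordered by mean. Ntn1 and Nrp2 lie highest in every group, while Robo1, Robo2 and Unc5c spread most widely between groups.

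Differences between groups were tested in CPM, which is used within a gene, with edgeR's quasi-likelihood test over 13044 genes and Benjamini-Hochberg adjustment, and called at an adjusted p below 0.05. At NLS t6 against NLS t0, 5 of the 7 tested genes were called, 3 higher and 2 lower, against 20.8% of all tested genes (11.6% higher, 9.23% lower). At NLS t48 against NLS t0, 1 was higher (14.8% of all genes) and 2 lower (11.3%), 26.1% of all genes being called either way, and a block for the cell line gave 5 calls (39.8% of all genes). At NLS t48 against NLS t6, 4 were lower (13.6% of all genes, with 28.2% called either way), and at LacZ t48 against LacZ t0, 1 was higher (8.68%) and 3 lower (9.87%), with 18.5% called either way. The median log2 change of the 7 was 0.01 at NLS t48 against t0 and -0.02 at LacZ t48 against t0, beside medians of -0.0066 and 0.0011 over all tested genes. The change from t0 to t48 differed between constructs for 5 of the 7, by the interaction term (23.3% of all genes). NLS t0 differed from LacZ t0 in 5 (43.5%), and NLS t48 from LacZ t48 in 6 (45.1%). Leaving out whole lines moved the numbers of all genes called. They went from 2716 to 994 without line 6 and 1361 without line 16 at NLS t6, and from 3402 to 1592 and 2118 at NLS t48 against t0. The number at NLS t48 against t6 went from 3673 to 2034 without line 6. The LacZ number went from 2419 to 522 and 587 without line 10 or 12, and to 1115 to 1290 without any 1 LacZ library. The interaction went from 3045 to 1810, 1272 and 1577 without line 6, 10 or 12. The comparisons of NLS t6 and NLS t48 with NLS t0 share the t0 libraries, and the interaction shares libraries with both t48 comparisons.

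**Figure D2:**
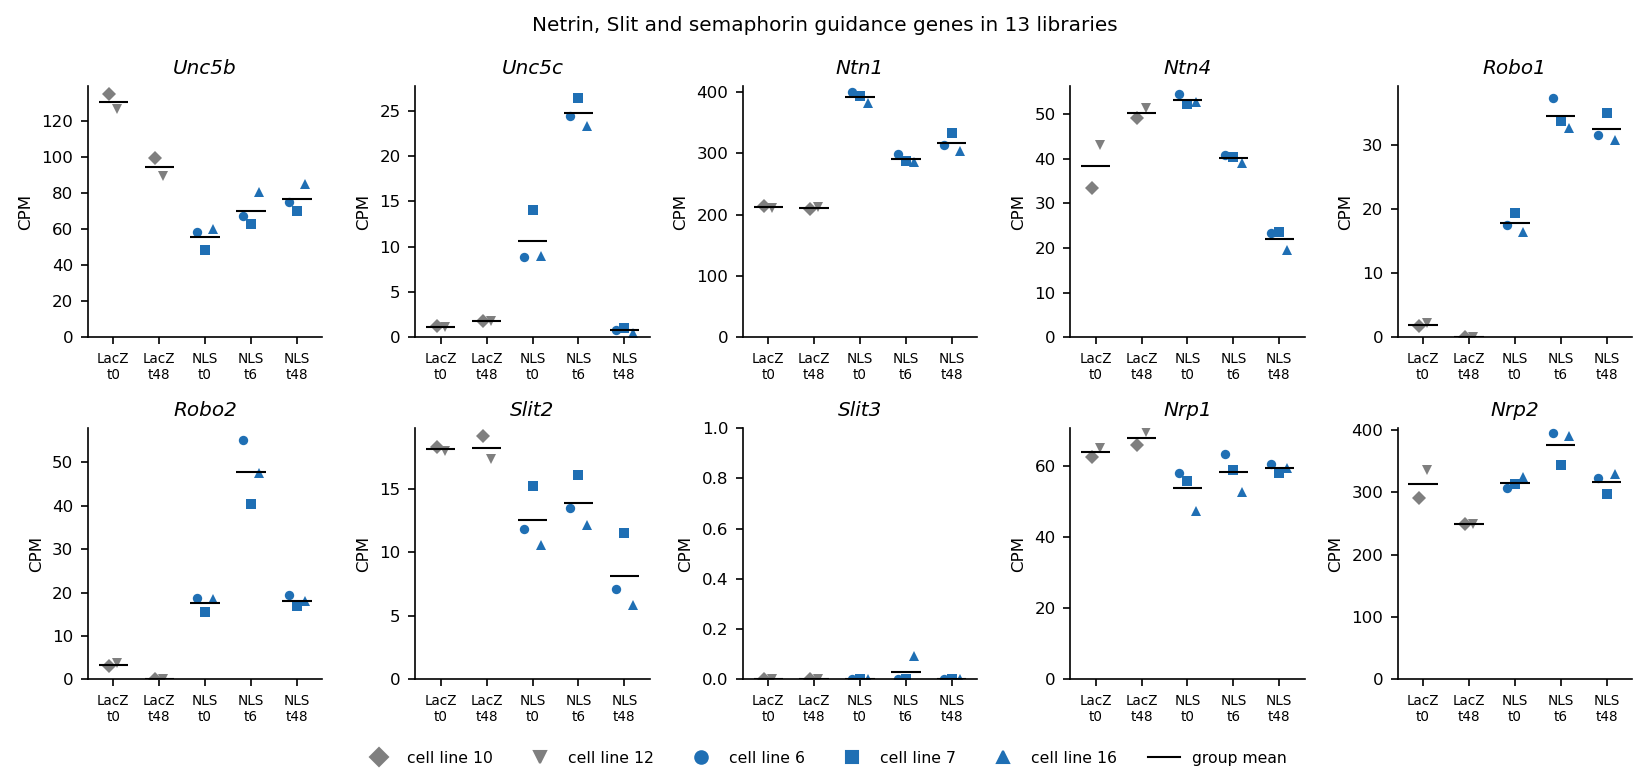
Levels in CPM (vertical axes, from 0) of the 10 genes in every library, by labelled group, with symbols for the cell lines and a bar at each group mean. Ntn4 stands at 19.5 to 23.6 CPM in the NLS t48 libraries and above 33 CPM in all others, and Unc5c is below 1 CPM at NLS t48 after 23.3 to 26.4 CPM at NLS t6.

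**Figure D3:**
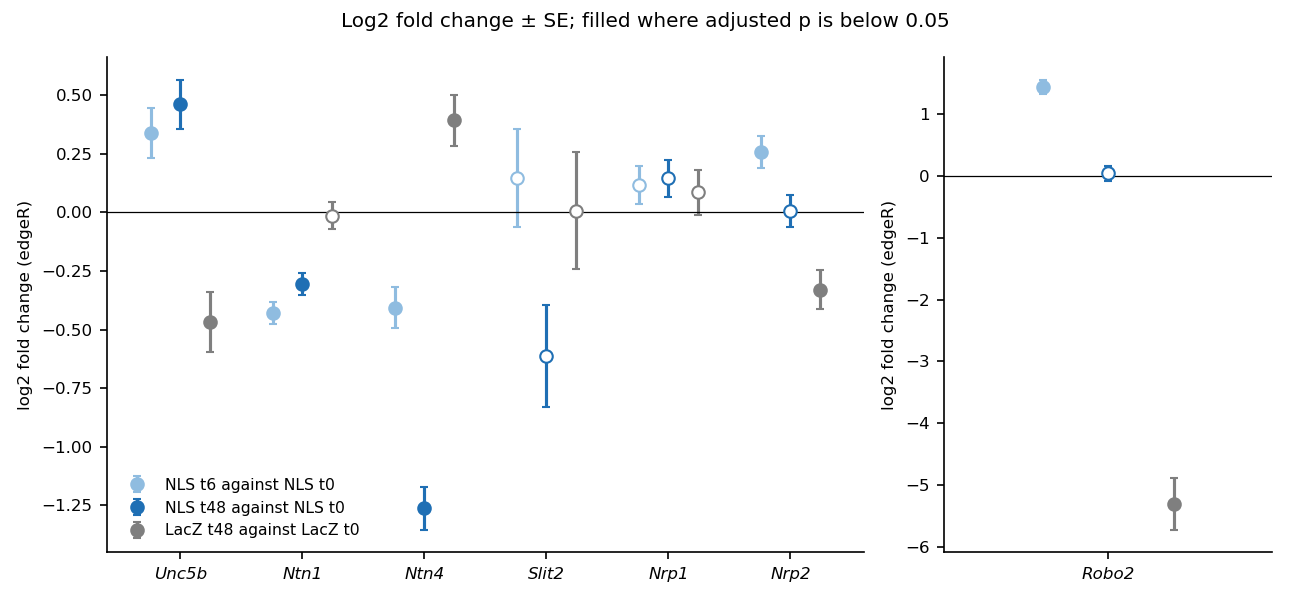
Log2 fold changes with standard errors (edgeR) of the 7 tested genes for the changes from t0, with Robo2 on its own axis. Filled points have an adjusted p below 0.05. At t48, Ntn4 and Unc5b have filled points on opposite sides of 0 in NLS and LacZ lines. Nrp2 is filled above 0 at NLS t6 and below 0 at LacZ t48, and is not filled at NLS t48.

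Among the ligands, Ntn1 encodes netrin 1, the secreted protein that gives the family its name (ENSMUSG00000020902, chr11:68209364-68400823, minus strand, protein-coding, in GRCm38 as for all genes below). In NLS lines 6, 7 and 16 it stood at 399.9, 393 and 381 CPM at t0, at 299, 287 and 286 CPM at t6, and at 313, 332 and 304 CPM at t48. In LacZ lines 10 and 12 it stood at 215 and 211 CPM at t0 and at 209 and 212 CPM at t48. All NLS libraries thus lay above all LacZ libraries, and within the NLS lines the t0 libraries were the highest. Ntn1 was 1.84-fold higher at NLS t0 than at LacZ t0 (log2 0.88 ± 0.05 SE, adjusted p = 2.2e-08). It fell by 0.43 on the log2 scale at NLS t6 (adjusted p = 3.5e-05) and by 0.31 at NLS t48 (adjusted p = 0.000345) against NLS t0, in 3 of 3 lines. NLS t48 lay above NLS t6 in each line with no overlap, by 0.12 ± 0.05 on the log2 scale, which was not called (adjusted p = 0.066) but was with the cell line as a block (0.021), by DESeq2 (0.0272) and with upper quartile normalization (0.0292). In the LacZ lines the log2 difference between t48 and t0 was -0.02 ± 0.06 (adjusted p = 0.893), and the NLS change differed from it by -0.29 ± 0.07 (adjusted p = 0.0129). That interaction lost its call without line 6, 10 or 12 (adjusted p 0.067 to 0.102).

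Ntn4 encodes netrin 4, a netrin that binds laminins of the basement membrane (ENSMUSG00000020019, chr10:93640681-93747207, plus strand). In NLS lines 6, 7 and 16 it stood at 54.6, 52.4 and 52.7 CPM at t0, 40.9, 40.4 and 39.1 CPM at t6, and 23.3, 23.6 and 19.5 CPM at t48. The 3 groups did not overlap, and each line followed the same order. Ntn4 fell at NLS t6 (log2 -0.41 ± 0.09, adjusted p = 0.0057) and at NLS t48 (2.40-fold, log2 -1.26 ± 0.09, adjusted p = 5.0e-07), and was lower at t48 than at t6 (-0.86 ± 0.09, adjusted p = 1.5e-05). The LacZ lines 10 and 12 had 33.5 and 43.0 CPM at t0 and 49.1 and 51.4 CPM at t48, and rose (0.39 ± 0.11, adjusted p = 0.0239). The difference between the changes of the constructs was -1.66 ± 0.14 on the log2 scale (adjusted p = 4.4e-06). Ntn4 was thus higher at NLS t0 than at LacZ t0 (0.48 ± 0.10, adjusted p = 0.00178) and lower at NLS t48 than at LacZ t48 (-1.18 ± 0.10, adjusted p = 5.3e-07). The call at NLS t6 ended without line 6 (adjusted p = 0.0747, in a range of 9.3e-05 to 0.0747 over all alternatives). The LacZ call ended without line 6 or 10, and without 1 of 3 single LacZ libraries (line 10 at t0, either line at t48), with adjusted p from 0.0638 to 0.316.

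Slit2 encodes a secreted Slit ligand of Robo receptors (ENSMUSG00000031558, chr5:47983138-48307733, plus strand). Its LacZ levels in lines 10 and 12 were 18.3 and 18 CPM at t0 and 19.1 and 17.4 CPM at t48. In NLS lines 6, 7 and 16 it stood at 11.8, 15.2 and 10.5 CPM at t0, 13.5, 16.1 and 12.2 CPM at t6, and 7.11, 11.5 and 5.84 CPM at t48. Line 7 was the highest NLS line at every label, and every NLS library lay below every LacZ library. Slit2 was lower at NLS t48 than at NLS t6 in 3 of 3 lines (log2 -0.76 ± 0.22, adjusted p = 0.0207). Against NLS t0 the t48 value was lower in 3 of 3 lines, by -0.61 ± 0.22, which was not called (adjusted p = 0.0569), whereas it was with the cell line as a block (0.000113), by DESeq2 (0.0215) and with upper quartile normalization (0.0463). The t48 call against t6 ended without line 6 or 16 and without 1 of 3 libraries (line 7 at t6, line 6 or 16 at t48), and also with no filter, with TPM-derived counts or with the compared libraries alone, with adjusted p from 0.050 to 0.167 in all. Conversely, the t48 value against t0 was called without line 7 (0.00107) or without its t48 library or the t0 library of line 16 (0.00177 and 0.0427).

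Between constructs, Slit2 was 2.22-fold lower at NLS t48 than at LacZ t48 (log2 -1.15 ± 0.24, adjusted p = 0.00175). At t0 the difference was -0.53 ± 0.23 (adjusted p = 0.0815), and the interaction was -0.62 ± 0.33 (adjusted p = 0.204, or 0.00374 with a line block). The t0 difference was called without line 7 (0.00049), without its t0 library (0.0361) and with the compared libraries alone (0.0254), and the interaction without line 7 (0.00637) or its t48 library (0.0140). The Slit2 values depended on the unit: on counts derived from TPM the t0 difference between constructs was 0.18, of the opposite sign, and the call at t48 ended (adjusted p = 0.0652). Salmon spread Slit2 over 8 transcripts that reached 5% of its TPM in at least 1 library, among them retained-intron and nonsense-mediated decay forms. Slit3, which encodes another Slit ligand (ENSMUSG00000056427, chr11:35121224-35708507, plus strand), had 2 reads in all 13 libraries together, both in NLS line 16 at t6. It was not detectable at this depth in the other 12 libraries.

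Among the netrin receptors, Unc5b (ENSMUSG00000020099, chr10:60762593-60831581, minus strand) was the more abundant. In LacZ lines 10 and 12 it stood at 135 and 127 CPM at t0 and at 99.5 and 89.9 CPM at t48. In NLS lines 6, 7 and 16 it stood at 58.7, 48.4 and 60.2 CPM at t0, 67.5, 63.3 and 80.5 CPM at t6, and 75.1, 70.2 and 85.0 CPM at t48. LacZ libraries were the highest, and the constructs drew nearer to each other at t48, with no overlap. Unc5b was 2.35-fold lower at NLS t0 than at LacZ t0 (log2 -1.23 ± 0.11, adjusted p = 2.2e-06). It rose from NLS t0 to t6 (0.34 ± 0.11, adjusted p = 0.0371) and to t48 (0.46 ± 0.11, adjusted p = 0.00604), and fell from LacZ t0 to t48 (-0.47 ± 0.13, adjusted p = 0.0217). The interaction was 0.93 ± 0.16 (adjusted p = 0.00149). NLS t48 remained below LacZ t48 (-0.30 ± 0.12, adjusted p = 0.0476), and the difference between NLS t48 and t6, 0.12 ± 0.10, was called only with the cell line as a block (0.0448).

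Several of these Unc5b calls ended when lines or libraries were left out. With the cell line as a block in the edgeR fit, the changes from t0 kept their calls. Adjusted p was then 5.3e-05 at NLS t6, 9.0e-07 at NLS t48 and 1.0e-05 at LacZ t48. The rise at NLS t6 ended without line 6, 10, 12 or 16 and without the t0 library of line 6 or 7 or the t6 library of line 6 or 16, and under 3 other settings (adjusted p 0.0519 to 0.145), and the rise at t48 without line 6 (0.0544). The LacZ call ended without line 6, 10 or 12 and without any 1 of the 4 LacZ libraries (0.0615 to 0.225), and that between the constructs at t48 without line 6, 10 or 12 and without the t48 library of line 6, 7, 10 or 12, and under 3 other settings (0.0506 to 0.311). The interaction and the difference at t0 kept their calls under every alternative run, with a highest adjusted p of 0.029 for the interaction.

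Unc5c (ENSMUSG00000059921, chr3:141465216-141834924, plus strand) encodes the paralogous receptor and was 1 of the 2 genes chosen for its differences. In NLS lines 6, 7 and 16 it stood at 8.86, 14 and 8.96 CPM at t0, at 24.4, 26.4 and 23.3 CPM at t6, and at 0.80, 0.977 and 0.531 CPM at t48, the last from 10 to 22 reads per library. The LacZ lines 10 and 12 had 1.29 and 1.10 CPM at t0 and 1.83 and 1.79 CPM at t48. These levels came from 24 and 22 reads at t0 and 33 and 35 reads at t48. The NLS groups did not overlap: every line was highest at t6 and lowest at t48, where it lay below both LacZ groups. Within a line, the t6 level was 1.88 to 2.76 times the t0 level, and the t48 level was 0.0593 to 0.0903 times it. In the LacZ lines the t48 level was 1.43 and 1.63 times the t0 level. Line 16, whose Adcy10 was low, showed the same order of levels as lines 6 and 7. Because these differences chose the gene, no test is given.

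The share of the receptor pair made up by Unc5b can be read on the TPM scale. Unc5b held 84.3 to 90.3% of the summed Unc5b and Unc5c level at NLS t0, 76.6 to 81.4% at NLS t6 and 99.2 to 99.6% at NLS t48, and 98.0 to 99.4% in the LacZ libraries. For the ligand pair, Ntn1 held 82.0 to 83.3% of the Ntn1 and Ntn4 level at NLS t0 and 89.6 to 90.6% at NLS t48, against 71.7 to 79.3% in the LacZ libraries.

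Of the Slit receptors, Robo2 (ENSMUSG00000052516, chr16:73891839-74411825, minus strand) was tested. In NLS lines 6, 7 and 16 it stood at 18.7, 15.5 and 18.6 CPM at t0, at 55.2, 40.5 and 47.5 CPM at t6, and at 19.4, 17 and 18 CPM at t48. Its LacZ levels in lines 10 and 12 were 3.05 and 3.69 CPM at t0 and 0.0556 and 0.102 CPM at t48, the latter from 1 and 2 reads. The t6 libraries were the highest in every NLS line, the t0 and t48 libraries overlapped, and all NLS libraries lay above all LacZ libraries. Robo2 rose 2.71-fold from NLS t0 to t6 (log2 1.44 ± 0.12, adjusted p = 2.3e-06) and was lower again at t48 than at t6 (-1.40 ± 0.12, adjusted p = 1.3e-06). Against t0, t48 differed by 0.04 ± 0.12 (adjusted p = 0.836).

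In the LacZ lines Robo2 fell from 131 reads at t0 to 3 at t48 (adjusted p = 5.4e-06), a depth-scaled ratio of 42.4 with an exact 95% interval of 14.2 to 208 for counting error. It was 5.2-fold higher at NLS t0 than at LacZ t0 (log2 2.38 ± 0.16, adjusted p = 7.4e-08). At t48 the ratio of the NLS to the LacZ libraries was 227 (95% interval 77.4 to 1101, adjusted p = 2.9e-10). The interaction was called too (adjusted p = 3.7e-06). These calls, and those at t6, held under every alternative run.

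Robo1 (ENSMUSG00000022883, chr16:72308306-73046095, plus strand), the other gene chosen for its differences, stood at 17.6, 19.4 and 16.4 CPM in NLS lines 6, 7 and 16 at t0. At t6 it stood at 37.3, 33.7 and 32.6 CPM, and at t48 at 31.6, 35.0 and 30.8 CPM. In LacZ lines 10 and 12 it stood at 1.72 and 2.25 CPM at t0 and had no read at t48. NLS t0 libraries lay below all t6 and t48 libraries, which overlapped with each other. Within a line the t6 level was 1.74 to 2.12 times and the t48 level 1.80 to 1.87 times the t0 level. With 3 reads per library as the floor, LacZ t0 was at least 12.4-fold higher than LacZ t48, and NLS t48 at least 202.8-fold higher than LacZ t48. Robo1 and Robo2 thus shared high NLS t6 levels and near-absence at LacZ t48, but at NLS t48 Robo1 stayed near its t6 level and Robo2 near its t0 level. On the TPM scale Robo1 held 22.7 to 26.5% of the Robo1 and Robo2 level at NLS t6 and 42.2 to 46.0% at NLS t48. These shares depend on how Salmon divided the Robo2 reads among transcripts. At NLS t6, Robo2-212 held 20.9 to 27.4% of the Robo2 TPM from 31.6 to 65.0 estimated reads per library. Robo2-201 held 16.4 to 24.6% from 49.1 to 53.3 reads. In estimated reads at NLS t48, Robo1 had 581 to 789 per library and Robo2 339 to 412.

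**Figure D4:**
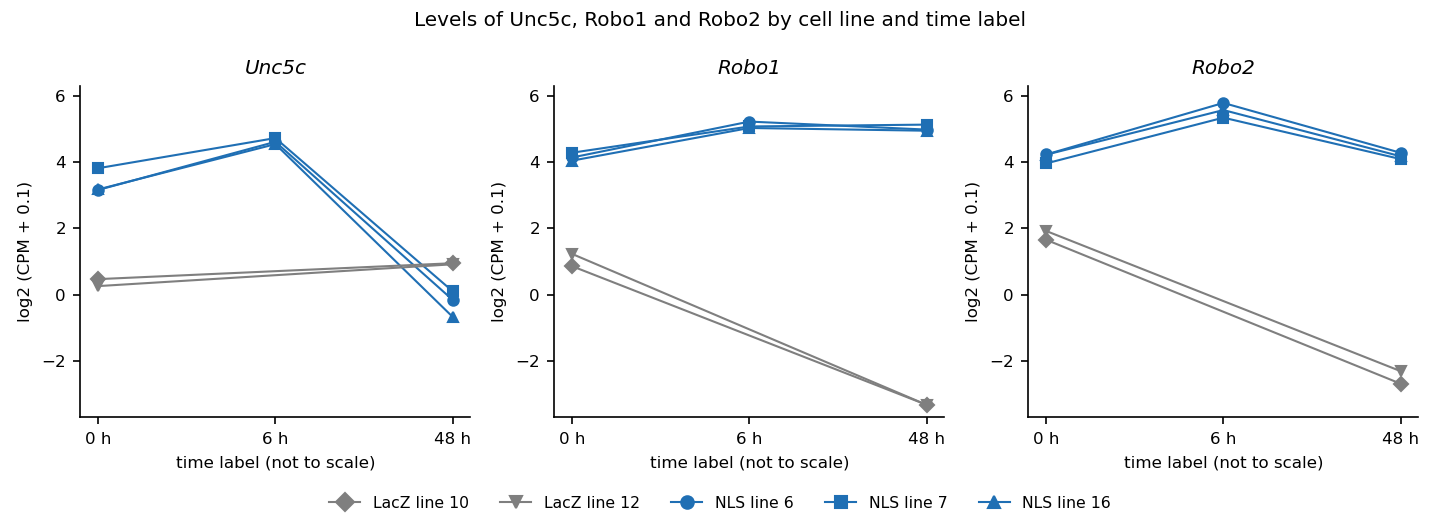
Levels of Unc5c, Robo1 and Robo2 in each cell line by time label (horizontal axis, not to scale), as log2 of CPM + 0.1. In the 3 NLS lines Unc5c drops below 1 CPM at t48 while Robo1 stays at 30.8 to 35.0 CPM, and in both LacZ lines Robo1 and Robo2 reach 0 to 0.102 CPM at t48.

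The receptors lie side by side on chromosome 16, 846 kb apart, with no protein-coding gene between them in the annotation. The nearest tested protein-coding genes outside the pair, looked up after the values were seen, were Gbe1, 1739 kb from Robo1, at 56.4 to 80.6 CPM over the 13 libraries, and Hspa13, 1334 kb from Robo2, at 56.0 to 75.8 CPM. Neither was near 0 in any library. Over the 13 libraries the log2 levels of Robo1 and Robo2 had a Pearson r of 0.972, and over the 9 NLS libraries 0.565. The points share libraries, lines and groups.

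The neuropilins varied least. Nrp1 (ENSMUSG00000025810, chr8:128358604-128503363, plus strand) stood at 58.1, 55.8 and 47.2 CPM in NLS lines 6, 7 and 16 at t0, at 63.2, 58.7 and 52.8 CPM at t6 and at 60.6, 58.1 and 59.4 CPM at t48. The LacZ lines 10 and 12 had 62.6 and 65.2 CPM at t0 and 65.9 and 69.6 CPM at t48. LacZ libraries were mostly the higher ones, with small gaps. It was lower at NLS t0 than at LacZ t0 (log2 -0.25 ± 0.09, adjusted p = 0.0352), a call that ended without line 10, 12 or 16 and without the t0 library of any of these lines, and when the compared libraries were fitted alone (adjusted p 0.0861 to 0.217). Its change from NLS t0 to t48, 0.14 ± 0.08, was called only with the line as a block (0.0430, against an adjusted p of 0.205 without it). The LacZ change was 0.09 ± 0.10 (adjusted p = 0.596), and the difference between NLS t48 and LacZ t48, -0.19 ± 0.09 (adjusted p = 0.0969), was called only when the compared libraries were fitted alone (0.0352).

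Nrp2 (ENSMUSG00000025969, chr1:62703285-62818695, plus strand) stood at 307, 314 and 324 CPM in NLS lines 6, 7 and 16 at t0, at 396, 344 and 390.3 CPM at t6, and at 323, 298 and 330.2 CPM at t48. Its LacZ levels in lines 10 and 12 were 290.5 and 336 CPM at t0 and 249.8 and 249 CPM at t48. The NLS t6 libraries were the highest and the LacZ t48 libraries the lowest of all. Nrp2 rose from NLS t0 to t6 (log2 0.26 ± 0.07, adjusted p = 0.0158) and was lower at t48 than at t6 (-0.25 ± 0.07, adjusted p = 0.0132), with a t48 value against t0 of 0.01 ± 0.07 (adjusted p = 0.954). It fell from LacZ t0 to t48 (-0.33 ± 0.08, adjusted p = 0.0150), was higher at NLS t48 than at LacZ t48 (0.35 ± 0.08, adjusted p = 0.00223), and had an interaction of 0.34 ± 0.11 (adjusted p = 0.0367). At t0 the constructs differed by 0.01 ± 0.08 (adjusted p = 0.94). The call at NLS t48 against LacZ t48 held without each line and library in turn.

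The smaller Nrp2 calls did not all hold when libraries were left out. The rise at NLS t6 ended without line 6 or 16 and without 1 of 3 libraries (line 6 at t0, line 6 or 16 at t6), with adjusted p from 0.0585 to 0.223. The lower level at NLS t48 than at t6 ended without line 6 or 16 and without line 6 at t6 or line 7 at t48 (0.0567 to 0.129). In LacZ it ended without either line and without 1 of 3 libraries (line 12 at t0, either at t48; 0.0566 to 0.316), and the interaction without line 6, 10, 12 or 16 and without 6 of the 10 libraries it rests on (0.0585 to 0.324).

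Markers of other cells moved with the labels beside these results. The summed fibroblast markers, 6 of 8 reaching 1 CPM, were mostly Col1a1, Col1a2 and Col3a1. Their sum was 9995 to 12162 CPM at NLS t0, 7789 to 9435 CPM at t6 and 15971 to 17063 CPM at t48, where Ntn4 was lowest. It was 8067 to 8215 CPM at LacZ t0 and 7126 to 7514 CPM at LacZ t48. Lum and Thy1 were near 0. Of 6 tested fibroblast markers, 3 were higher and 0 lower at NLS t48 against t0, and 3 higher and 1 lower against t6. At LacZ t48 against t0, 1 was higher and 3 lower. The summed mural markers, nearly all Acta2, were 353 to 781 CPM at NLS t0, 641 to 1094 CPM at NLS t6 and 1394 to 2062 CPM at NLS t48, and 376 to 471 CPM at LacZ t0 and 1535 to 1878 CPM at LacZ t48. Cd68, the 1 of 6 leukocyte markers to reach 1 CPM, was lower at NLS t48 than at t0 (log2 -0.65) and higher at LacZ t48 (0.42), with an interaction of -1.07, and these are the directions of Ntn4. The summed leukocyte markers were 11.5 to 12.7 CPM at NLS t0 and 7.64 to 8.80 CPM at NLS t48, and 5.79 to 6.81 CPM at LacZ t0 and 7.77 to 9.11 CPM at LacZ t48. The keratinocyte marker Krt14 was higher at NLS t48 (1.37) at 0.115 to 2.85 CPM over all libraries, with Krt5 near 0. The part of these markers in the results was not tested.

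The lines of the same construct were compared too. With the time label as a block, no tested gene was called between NLS lines 6 and 16 by edgeR or DESeq2 (2 at an unadjusted p below 0.05; 2.26% of all genes were called). None was called between LacZ lines 12 and 10 (1 at an unadjusted p below 0.05; 0.123% of all genes). Line 7 had less Unc5b than line 16 (log2 -0.31 ± 0.05, adjusted p = 0.000232) and more Slit2 (0.61 ± 0.10, adjusted p = 0.000365), 2 of 7 genes against 22.6% of all. Against line 6, line 7 had more Slit2 (0.43 ± 0.10, adjusted p = 0.0104) and less Robo2 (-0.31 ± 0.07, adjusted p = 0.0106), 2 of 7 against 11.1%. DESeq2 called neither of these last differences (adjusted p = 0.054 for Slit2 and 0.106 for Robo2). They also ended without line 6 or line 7 at t48 for Slit2 (0.0655 and 0.0731) and without line 6 or line 7 at t6 for Robo2 (0.0907 and 0.0743). A line's libraries at different labels stand for that line only.

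Salmon's division of reads among transcripts is given as a description, since transcripts of a gene share most of their sequence. Ntn1, Ntn4 and Nrp1 were nearly all 1 transcript. Of Robo1, Robo1-201 held all of the TPM at LacZ t0 and 48.3 to 88.5% in the NLS libraries. Most of the rest went to Robo1-206, which starts 99.4 kb further upstream, at 0, 18.1 and 34.6% at NLS t0, 22.8 to 39.9% at t6 and 31.5 to 44.2% at t48, so the levels at t0 overlapped with those at t6. The printed Robo1 sequence precedes the start of Robo1-201. Unc5c was divided between Unc5c-202 (52.8 to 67.6% at NLS t0, 62.8 to 72.1% at t6) and Unc5c-201 (31.2 to 47.2% and 26.9 to 37.0%), and at NLS t48 no read was assigned to Unc5c-201. At NLS t0 and t6 both transcripts thus contributed, and at t48 the 10 to 22 reads per library leave the division open to counting error. Nrp2 was spread over 6 transcripts, with Nrp2-202 the largest at 47.8 to 61.1%. Robo2 was spread over 10 transcripts that reached 5% of its TPM in at least 1 library.

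The genes whose log2 levels followed Unc5c most closely over the 13 libraries were Cdkn2aipnl (Pearson r = 0.972), Ern1, which encodes the endoplasmic reticulum stress sensor IRE1 (0.963), and Prkg1, a cGMP-dependent protein kinase (0.947). Their group means spanned less: Ern1 went from 53.8 to 96.0 CPM and Prkg1 from 0.597 to 5.55 CPM, against 0.769 to 24.7 CPM for Unc5c. For Robo1 they were Tfpi, an inhibitor of tissue factor (0.991), Dennd2a (0.989) and Lcmt2 (0.988). Over the 9 NLS libraries alone r was 0.768 for Tfpi, 0.898 for Dennd2a and 0.834 for Lcmt2, while it was 0.965 to 0.977 for the 3 genes like Unc5c.

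Other genes of the same families, with receptors and binding partners, were counted from lists that, like the 10 genes, were drawn up with earlier results known. The netrin list holds other netrins, receptors and related molecules such as the Flrt and Rgm genes. At NLS t48 against NLS t0, 7 of its 9 tested genes were higher and 1 lower, with a median log2 change of 0.73. They included the Unc5 ligand Flrt3 (3.23), the netrin receptor Mcam (1.75) and the neogenin ligand Rgma (0.73), and Flrt2 was lower (-0.78). At LacZ t48 against t0, 2 of these 9 were lower (Ntng2, -0.85, and Flrt2, -0.34) and none higher. Of 8 tested plexins, semaphorin receptors of which mainly the A type pair with neuropilins, 6 were higher at NLS t48 and none lower, and 3 were lower at LacZ t48. Plxna2, a neuropilin partner, fell from 46.6 to 13.4 CPM in the LacZ lines (log2 -1.80, adjusted p = 1.1e-05). Of 12 membrane semaphorins, 5 were higher and 2 lower at NLS t48, with Sema6d (4.01), Sema6a (2.77) and Sema7a (-0.97) among them. Of 7 class 3 semaphorins, the neuropilin ligands, only Sema3a was called at NLS t48 (-0.40), and it was lower at LacZ t48 too (-0.58).

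The Slit and Robo list also holds proteoglycans such as Gpc1 and the syndecans, Dag1, and the intracellular Srgap genes. Of its 10 tested genes, 4 were higher and 1 lower at NLS t48. Gpc1, a heparan sulfate proteoglycan that binds Slits, rose at NLS t48 (0.48) and fell at LacZ t48 (-0.58). Of 6 VEGF partners of neuropilins, Vegfa was higher (0.40) and the receptor Flt1 lower (-0.50) at NLS t48, whereas Flt1 was higher at LacZ t48 (2.43). Of 24 intracellular effectors, 12 were higher and 2 lower at NLS t48, among them the semaphorin effectors Mical1 (1.21) and Dpysl3 (-1.19), and 7 were higher and 1 lower at LacZ t48. Of 16 ephrins and Eph receptors, taken for comparison, 4 were higher and 1 lower at NLS t48, and 1 higher and 4 lower at LacZ t48. Over all tested genes, 14.8% were higher and 11.3% lower at NLS t48, and 8.68% higher and 9.87% lower at LacZ t48.

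**Figure D5:**
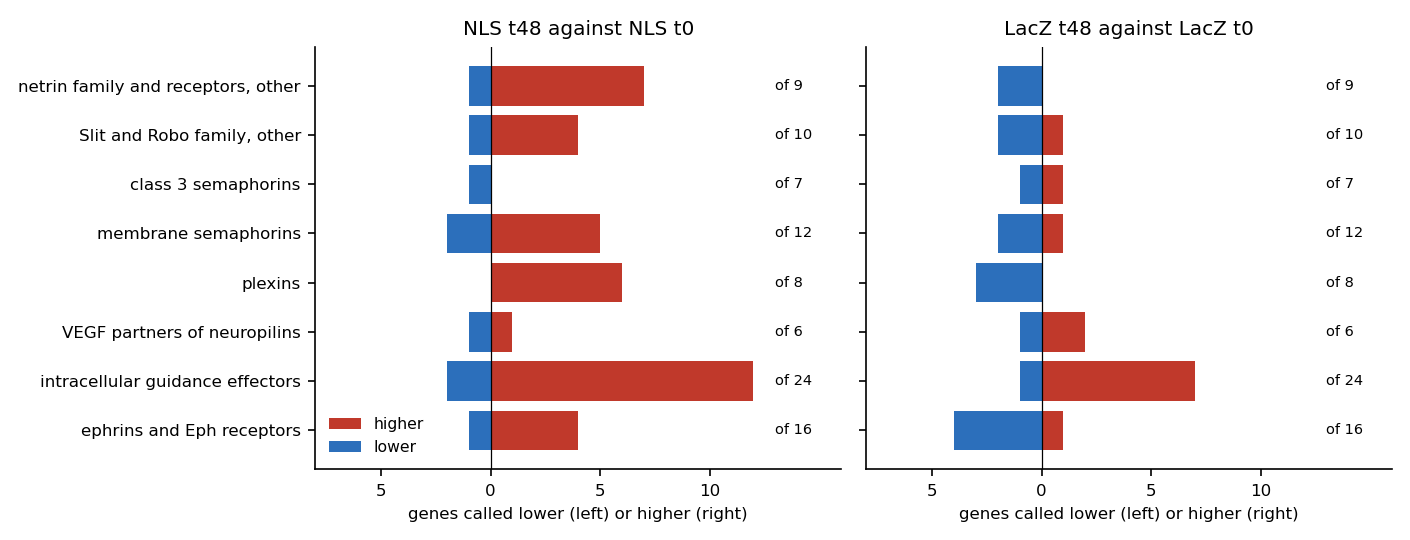
Numbers of tested genes on 8 guidance gene lists called higher (right of 0) or lower (left of 0) at t48 against t0. NLS and LacZ lines are shown apart, with the number tested beside each bar. In the NLS lines 7 of 9 genes on the list of other netrins and receptors and 6 of 8 plexins are higher. In the LacZ lines none of either list is.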

How the data were processed

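RNA was extracted with Trizol and sequenced from stranded, paired-end Truseq mRNA libraries, per the labels' protocols. The submitters' processing notes name Salmon 1.2.0 and the build GRCm38, without the transcript set or the options, which the sources used here do not give. The deposited tables hold Salmon's estimated counts and TPM for each transcript, with effective lengths. A read matching several transcripts is shared out by Salmon's model, so transcript values, and those of similar paralogs, are less certain.

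Of 116546 transcripts, 115977 (99.51%) matched a GENCODE annotation of GRCm38 by identifier. For each of 35498 genes the estimated counts were added up, then rounded to integers, and 0.121 to 0.165% of reads per library stayed unmatched and were left out. Genes were tested with edgeR 4.0.16 in R 4.3.3 (limma 3.58.1): TMM normalization, the filterByExpr filter, robust quasi-likelihood tests, 1 fit over 13 libraries with 5 group means, and Benjamini-Hochberg adjustment. Line comparisons add the line to that fit. Alternatives were DESeq2 1.42.0, other normalizations, no filter, TPM-derived counts, fits of the compared libraries alone, a cell line block, and leaving out lines and libraries. Scripts were tested on simulated data. No 2 libraries of a group agreed within sampling noise.

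The line number is shared between labels, and libraries with the same number come from the same line, so numbers pair them. Deviations from group means correlated at 0.025 to 0.282 between NLS libraries of the same line and at -0.263 to 0.0524 between lines, and at -0.020 in LacZ.

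The 10 genes and all lists were chosen with earlier results of these data known. Named are all 10 genes. From each other list up to 3 genes higher and 3 lower with the smallest p at t48 against t0 in each construct, and the 3 with the highest TPM, could be named. The 3 genes most correlated with Unc5c and Robo1, in log2(CPM + 0.5), were named too.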

Additional observations from a re-analysis of the deposited data

Results flagged for a closer look

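For 5 of the 7 tested genes the change from t0 to t48 differed between NLS and LacZ lines by the edgeR interaction term. That term was called for 23.3% of all tested genes. The differences on the log2 scale were -1.66 for Ntn4, 0.93 for Unc5b, -0.29 for Ntn1, 0.34 for Nrp2 and 5.34 for Robo2. The Robo2 value depends on the prior count, since the LacZ t48 libraries held 3 reads together, and was 3.24 with TPM-derived counts, in a range of 3.24 to 5.81 over all alternatives. Those of Ntn4 and Unc5b rest on changes of opposite direction in all 5 lines. The Nrp2 and Ntn1 interaction calls ended in some of the leave-outs, as given above.

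Unc5c and Robo1 moved in opposite directions in the NLS and LacZ lines, in every line. Unc5c at NLS t48 was at 0.0725 times its mean at t0, and was higher at t48 in both LacZ lines. Robo1 at NLS t48 was at 1.82 times its mean at t0, and had no read in either LacZ t48 library. These differences were not tested, because they chose the genes.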

How the results depend on the processing

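Over all alternatives, 745 recomputed log2 values between groups kept direction and call, 78 lost a call, 18 gained 1 and 27 changed sign.

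With the cell line as a replicate block, 5 members were called at NLS t48 against t0 in place of 3. The cause of the added calls was not tested, and same-line deviations correlated at -0.020 in LacZ. The block raised the genes called from 2716 to 4527 (NLS t6 against t0), from 3402 to 5188 (NLS t48), from 2419 to 4308 (LacZ t48) and from 3045 to 4875 (interaction), and changed no call of a member beyond those given with it above.

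Leaving out lines or libraries in turn, the members called ranged from 2 to 5 at NLS t6 against t0, from 2 to 4 at NLS t48 against t0 and against t6, from 1 to 4 in LacZ and from 3 to 6 in the interaction. They ranged from 0 to 1 between lines 6 and 16 and from 1 to 2 between lines 7 and 6. A group left with 1 library is assumed to vary like the others.

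Between lines 7 and 16, 4 members were called with upper quartile normalization or the compared libraries alone, 1 with TPM-derived counts and 0 without the time block. Between lines 7 and 6, 0 were called with DESeq2, TPM-derived counts or no time block, and between lines 6 and 16, 1 without the filter. Without the time block the genes called fell from 2950 to 9 and from 1446 to 0.

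All sign changes concern values that were not called. With TPM-derived counts they were -0.15 for Slit2 at NLS t6 and -0.062 for Robo2 at NLS t48 against t0, 0.0089 for Ntn1 in LacZ, and 0.18 for Slit2 and -0.030 for Nrp2 at NLS t0 against LacZ t0. With upper quartile normalization they were -0.0041 for Nrp2 at NLS t48 against t0 and -0.0077 for Slit2 in LacZ, and -0.0063 for that Nrp2 value without the filter. Leave-one-out values ran from -0.039 to 0.090 for Nrp1 at NLS t48 against t6 and from -0.033 to 0.11 for its interaction. They ran from -0.092 to 0.13 for Nrp2 at t0 between constructs, and at NLS t48 against t0 from -0.034 to 0.051 for Nrp2 and from -0.044 to 0.087 for Robo2. In LacZ they ran from -0.029 to 0.0057 for Ntn1 and from -0.059 to 0.083 for Slit2. Their causes were not tested.

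Depth limits Slit3, Unc5c at NLS t48 and the Robo genes at LacZ t48, which rest on 0 to 22 reads per library. Unc5c in the LacZ lines rests on 22 to 35 reads per library.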
